A study of Mus musculus with 12 samples.

Results

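The 9 genes described here make, modify or carry the sialylated glycans of T cells: Selplg, Fut7, Gcnt1, B4galt1, St3gal4, St3gal6, St3gal1, St6gal1 and Cmah. The genes were chosen by symbol, as rows present under these names in both deposited count tables, and all 9 were found among the 13625 symbols that the tables have in common. All 9 passed the filter on low counts in both states. The set was proposed with results of these data in view, so the level of each gene in the ATRA and CTRL groups, and the difference between those groups, is given as a description. Where a gene is said to have passed, its adjusted p in the fit over all tested genes was under 0.05, and the share of all genes that did so stands beside the first count for each comparison.

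Sialic acids are acidic sugars that end many glycan chains on the cell surface, and sialyltransferases attach them from the activated donor CMP-sialic acid in the Golgi. Selectins on endothelium and platelets bind a sialylated and fucosylated glycan, sialyl Lewis x, displayed on branched O-glycans of PSGL-1 (encoded by Selplg), and naive CD8+ T cells build little of it before they are activated. Sialic acid on other chains masks galactose, is read by the Siglec receptors of immune cells, and changes when CD8+ T cells pass between naive, effector and memory states.

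The cells were CD8+ T cells from the spleen of OT-I mice, which carry a transgenic T cell receptor for a chicken ovalbumin peptide. They were expanded with antibodies to CD3e and CD28 and with IL-2, together with all-trans retinoic acid, the vitamin A derivative that acts through nuclear receptors, at 5 ng/mL (ATRA) or with an equal volume of its solvent DMSO (CTRL). They were kept in culture for 5 further days and then mixed for 72 h at 1% O2 with GL261, a mouse glioma line made to express ovalbumin, and neither agent was present in that phase. Live CD45.2+ cells were sorted then (the exhaustion groups, here called before restimulation) or after another 24 h with antibody to CD3e (the exhaustion_stim groups, here called after restimulation). Each of the 4 groups had 3 libraries, and all of them share the transgenic receptor, the expansion, the glioma cells and the low oxygen. The ATRA libraries measured what remained of an earlier exposure, the model is a culture and not a tumour in an animal, and the labels do not say how many mice gave the cells.

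Cmah, Fut7 and St6gal1 were the 3 members with the widest range over the 4 groups, and the 250 bases before 1 RefSeq transcription start of each are shown for that reason (build GRCm38.p6, plus strand in all 3 cases, written from 5′ to 3′). Capitals mark a match to 1 of 3 short motifs searched on both strands: AGGTCA, the half-site of nuclear receptors; GGTGTGA, the core that T-box factors bind; and ACGTG, the core of hypoxia response elements. The Cmah stretch lies at chr13:24327154-24327403, that of Fut7 at chr2:25422992-25423241 and that of St6gal1 at chr16:23290220-23290469.
Cmah: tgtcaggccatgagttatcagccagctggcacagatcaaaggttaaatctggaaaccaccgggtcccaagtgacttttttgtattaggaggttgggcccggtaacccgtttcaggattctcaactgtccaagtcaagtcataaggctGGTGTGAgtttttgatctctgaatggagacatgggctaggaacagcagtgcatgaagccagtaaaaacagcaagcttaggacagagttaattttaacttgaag
Fut7: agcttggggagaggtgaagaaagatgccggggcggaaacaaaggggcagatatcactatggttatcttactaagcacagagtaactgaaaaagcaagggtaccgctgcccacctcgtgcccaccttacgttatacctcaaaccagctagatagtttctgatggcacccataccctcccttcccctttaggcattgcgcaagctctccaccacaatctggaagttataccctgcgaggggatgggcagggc
St6gal1: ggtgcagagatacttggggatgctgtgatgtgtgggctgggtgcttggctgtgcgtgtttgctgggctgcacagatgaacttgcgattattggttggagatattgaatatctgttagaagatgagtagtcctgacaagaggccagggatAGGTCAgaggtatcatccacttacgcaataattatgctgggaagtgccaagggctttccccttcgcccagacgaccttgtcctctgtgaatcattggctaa
In the Cmah stretch GGTGTGA stands 96 bases before the start, and in that of St6gal1 AGGTCA stands 95 bases before it. The stretch shown is that of start 1 for Cmah and Fut7 and of start 3 for St6gal1. The other St6gal1 starts hold no AGGTCA: start 1 has no match and start 2 has ACGTG. Start 2 of Cmah, also not shown, has ACGTG, and start 2 of Fut7 has no match. Of 32851 RefSeq promoters 14% hold AGGTCA in the same 250 bases, 3.33% hold GGTGTGA and 16.6% hold ACGTG. RefSeq gave 14 starts for 7 of the members, with no entry matched for Selplg and St3gal1, and of these 14 stretches 1 holds the nuclear receptor half-site, 1 the T-box core and 2 the hypoxia core. Which start the cells used was not measured, so a match here is only a description of the letters.

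Libraries held 23558244 to 26111497 counts before restimulation and 16288111 to 20115836 after it, and levels are given as CPM, counts scaled to the library total after TMM scaling within each table. Before restimulation CTRL replicate 1 and ATRA replicate 3 stood apart, with correlations of log CPM to the other libraries of their group of 0.978 and 0.98, and of 0.948 and 0.962, against 0.994 and 0.99 between the remaining pairs. Summed CPM of the CD8 T cell markers in the tables (Cd8a, Cd8b1, Cd3e, Cd3g, Cd3d, Ptprc and, after restimulation, Trac) was 1918 to 2726 before and 1796 to 2291 after restimulation. Markers of GL261 and glial cells summed to at most 5.27, with 4 of the 10 listed in the table before restimulation (Sox2, Olig1, Olig2, Gfap, Pdgfra and S100b not in it) and all 10 in the later one. Summed markers of some other immune cells differed between CTRL and ATRA libraries, though the genes of a list did not all move one way. Single genes are given as means in CTRL, then ATRA cells. For monocyte and macrophage genes (3 in the earlier table, 6 in the later) the sums were 12.3 to 13.4 and 19.9 to 24.2 CPM before restimulation and 11.6 to 17.0 and 23.1 to 24.1 CPM after it, with Csf1r at 0 in all libraries of the later table. Before restimulation Cd68 made up most of the sums, at 11.4 and 20.4 CPM. Itgam was also higher in ATRA cells (0.214 and 1.51 CPM), and Cd14 was lower (1.16 and 0.253 CPM). For dendritic cell genes (3 and 5 in the tables) the sums were 10.7 to 15.3 and 4.12 to 7.55 CPM, then 19.3 to 53.6 and 70.3 to 71.5 CPM, with Clec9a at 0 in the restimulated ATRA libraries. Before restimulation Zbtb46 was 10.3 and 1.58 CPM and Itgax 2.38 and 3.68 CPM. After it Itgax made up most of the sums, at 29.5 and 68.0 CPM, with Zbtb46 at 0.980 and 2.65 CPM and Flt3 at 0.864 and 0.141 CPM. For NK cell genes the CTRL sums were 8.34 to 12.2 CPM before restimulation, above the ATRA sums of 0.734 to 1.77 CPM, and after it they were 3.92 to 4.49 and 1.26 to 3.77 CPM. Before restimulation Klre1 was 9.79 and 0.574 CPM, while Klrb1c went the other way at 0.377 and 0.805 CPM. CD4 T cell genes summed to 39.9 to 45.3 and 73.4 to 76.3 CPM before restimulation, and to 18.2 to 23.5 and 22.2 to 25.1 CPM after it. Nearly all of this was Zbtb7b, at 41.3 and 73.9 CPM before and 20.0 and 23.4 CPM after restimulation. Cd4 itself was 0.433 and 1.00 CPM before restimulation, with overlapping libraries, and Foxp3 was 1.16 and 0.282 CPM. The part of these cells in the members' values was not tested. In bulk RNA, fewer cells that express a gene and less of its RNA per cell cannot be told apart.

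Before restimulation 6 of the 9 members passed, 4 higher and 2 lower in ATRA cells, where 33.6% of all 12111 tested genes passed (18.1% higher, 15.5% lower). The libraries of both groups did not overlap for any of the 9 members, as was the case for 57% of tested genes. After restimulation 7 of 9 passed, 4 higher and 3 lower, beside 62.6% of 12783 tested genes (31.8% higher, 30.8% lower), and 7 members did not overlap, beside 68.8%. The median log2 fold change of the members was -0.27 before and 0.31 after restimulation, and over all tested genes it was 0.01 and 0.02. The members did not all move one way in either state.

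**Figure D1:**
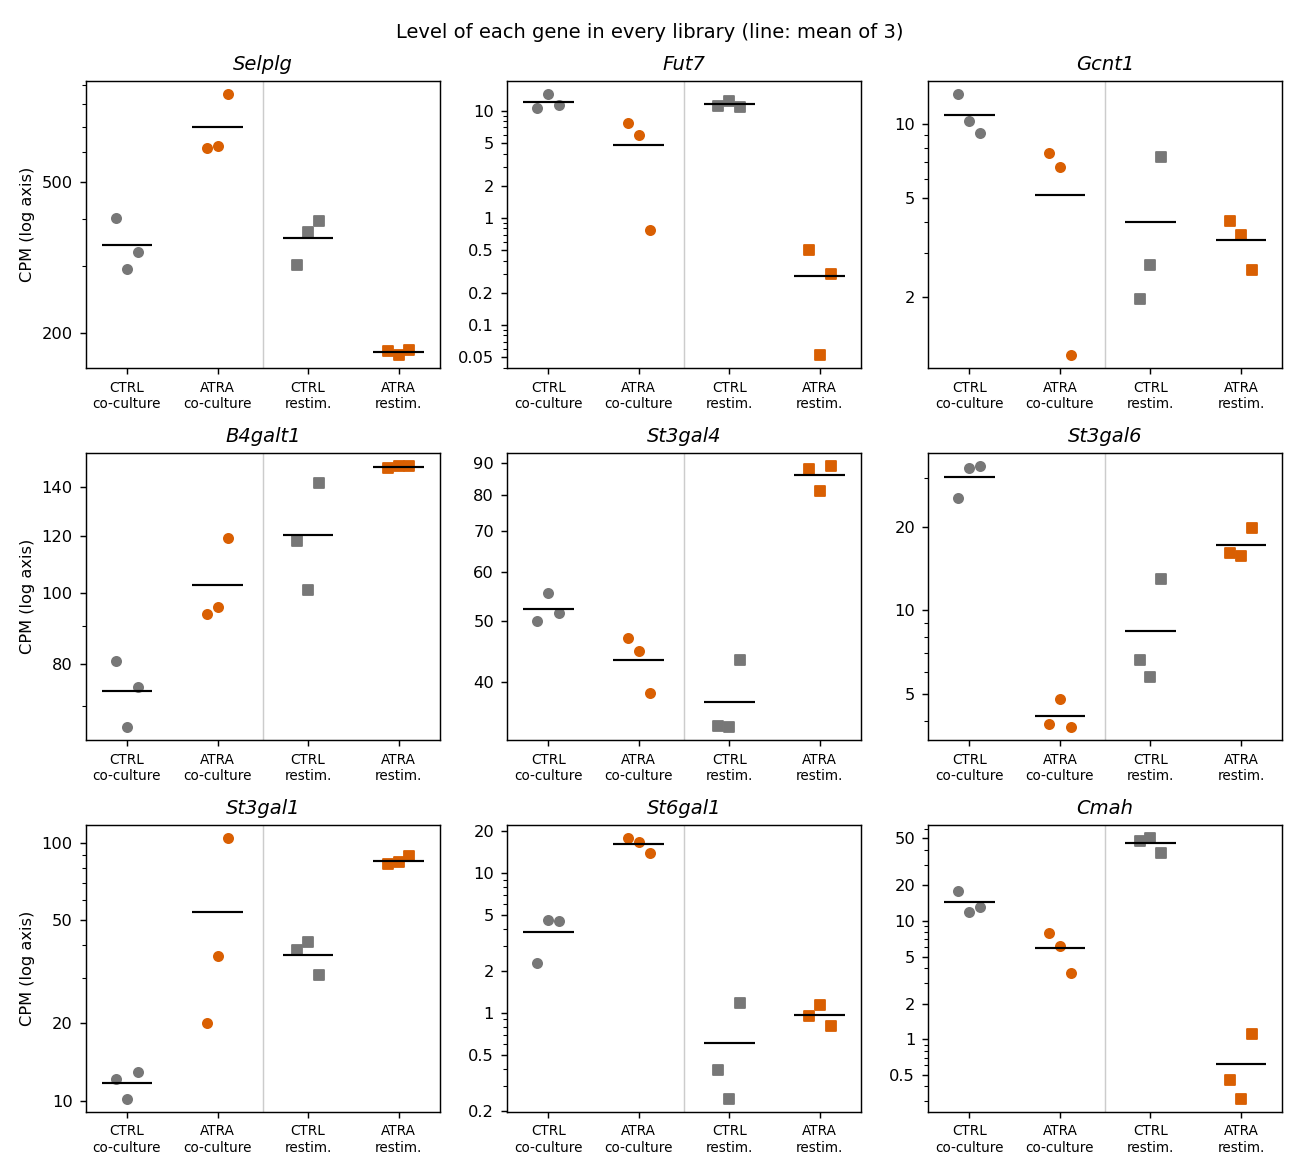
CPM of the 9 members in each library on a log axis, 1 panel per gene, with the 4 groups along the horizontal axis; points are libraries and bars are group means. Cmah and Fut7 are near the floor in the restimulated ATRA libraries, and Selplg lies above CTRL before restimulation and below it afterwards.

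Selplg encodes PSGL-1, the mucin-like carrier of selectin ligands on leukocytes, which is also known as a negative regulator of T cell responses. Before restimulation it stood at 401, 296 and 328 CPM in CTRL cells and at 614, 624 and 852 CPM in ATRA cells. Every ATRA library was above every CTRL library, and the log2 fold change was 1.03 (SE 0.18), about 2.04-fold. After restimulation the CTRL libraries held 304, 371 and 396 CPM and the ATRA libraries 179, 175 and 181 CPM. The order of the groups was turned over, with all ATRA libraries below all CTRL libraries and a log2 fold change of -0.999 (SE 0.089). Selplg passed in both states and also in the test of the difference between them, which was -2.03 (SE 0.22). On a scaling common to the 12 libraries CTRL cells had 366 ± 57.6 and 358 ± 47.7 CPM (SD, n = 3) before and after restimulation, ranges that overlap, while ATRA cells had 747 ± 157 and 178 ± 2.37 CPM. The libraries before and after restimulation belong to different batches, and their count tables differ in filter and gene naming. For every member state, batch and table therefore cannot be told apart, and levels set across states are a description.

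Fut7 encodes fucosyltransferase VII, which adds the fucose that completes sialyl Lewis x. Its CPM before restimulation was 10.7, 14.4 and 11.4 in CTRL cells and 7.68, 5.97 and 0.777 in ATRA cells. All ATRA libraries were lower, replicate 3 far below the other two, and Fut7 did not pass (log2 fold change -1.34, SE 0.67). Without ATRA replicate 3 the value was -0.84 (SE 0.19), and it passed, as did 45.4% of all tested genes in that fit. After restimulation the counts were 199, 203 and 203 in the CTRL libraries and 9, 1 and 6 in the ATRA libraries, or 10.9 to 12.4 CPM against 0.0523 to 0.504 CPM. The log2 fold change was -5.31 (SE 0.40), the groups were far apart, and the floor of 3 counts lies at 0.149 to 0.184 CPM in these libraries. Without ATRA replicate 1, the library with 9 counts, it was -5.95, and without ATRA replicate 2, with 1 count, it was -4.82. Fut7 passed there and in the test of the difference (-3.98, SE 0.95).

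Gcnt1 encodes the core 2 branching enzyme that opens the O-glycan arm on which sialyl Lewis x is built. It was measured at 13.2, 10.3 and 9.18 CPM in CTRL and at 7.60, 6.69 and 1.17 CPM in ATRA cells before restimulation. The groups did not overlap, ATRA replicate 3 again held the lowest value, and Gcnt1 did not pass (-1.07, SE 0.60). Without ATRA replicate 3 it passed at -0.61 (SE 0.19), in the fit where 45.4% of all tested genes passed. After restimulation it was low in both groups, at 1.96, 2.69 and 7.36 CPM in CTRL and 4.03, 3.56 and 2.56 CPM in ATRA cells. These ranges overlap because CTRL replicate 3 lies above every ATRA library and the other CTRL libraries lie near or below them. The log2 fold change of -0.25 (SE 0.46) did not pass, and its sign turned to 0.53 (SE 0.33) without CTRL replicate 3.

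B4galt1 encodes the galactosyltransferase that completes the lactosamine units to which sialic acid and fucose are added. Before restimulation the CTRL libraries had 80.7, 65.4 and 74.2 CPM and the ATRA libraries 93.5, 95.8 and 119 CPM. ATRA libraries were all higher by a modest amount (log2 fold change 0.49, SE 0.14), which passed. After restimulation CTRL cells had 118, 101 and 142 CPM and ATRA cells 149, 150 and 150 CPM (149.1 to 149.9). The groups again did not overlap, with a log2 fold change of 0.31 (SE 0.11) that passed. B4galt1 is the member whose passing depended most on single libraries: before restimulation leaving out CTRL replicate 2 (0.40) or 3 (0.49) or ATRA replicate 2 (0.53) ended the call, as did the replicate block (0.48), and after restimulation it no longer passed without any single library other than CTRL replicate 3 (0.20 to 0.32).

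St3gal4 and St3gal6 encode sialyltransferases that cap lactosamine before the fucose is added, and both are known to serve selectin ligands of leukocytes. St3gal4 stood at 50.0, 55.5 and 51.6 CPM in CTRL and at 47.0, 44.7 and 38.3 CPM in ATRA cells before restimulation. The ATRA libraries were slightly lower without overlap, and the log2 fold change of -0.27 (SE 0.11) did not pass. After restimulation the CTRL libraries had 34.0, 33.8 and 43.4 CPM and the ATRA libraries 87.9, 81.1 and 89.1 CPM. There every ATRA library lay far above the highest CTRL library, with a log2 fold change of 1.21 (SE 0.11) that passed. The difference between the states was 1.49 (SE 0.16) and passed.

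Before restimulation St3gal6 was 25.3, 32.5 and 33.2 CPM in CTRL and 3.90, 4.8 and 3.80 CPM in ATRA cells. Each ATRA library was several times lower than each CTRL library, and the log2 fold change was -2.86 (SE 0.18), or 7.28-fold lower. After restimulation CTRL cells had 6.62, 5.75 and 13.0 CPM and ATRA cells 16.1, 15.7 and 19.7 CPM. ATRA libraries were now higher, the nearest CTRL library being replicate 3, with a log2 fold change of 1.02 (SE 0.28). St3gal6 passed in both states and in the difference between them, which at 3.88 (SE 0.38) was the largest positive value among the members.

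**Figure D2:**
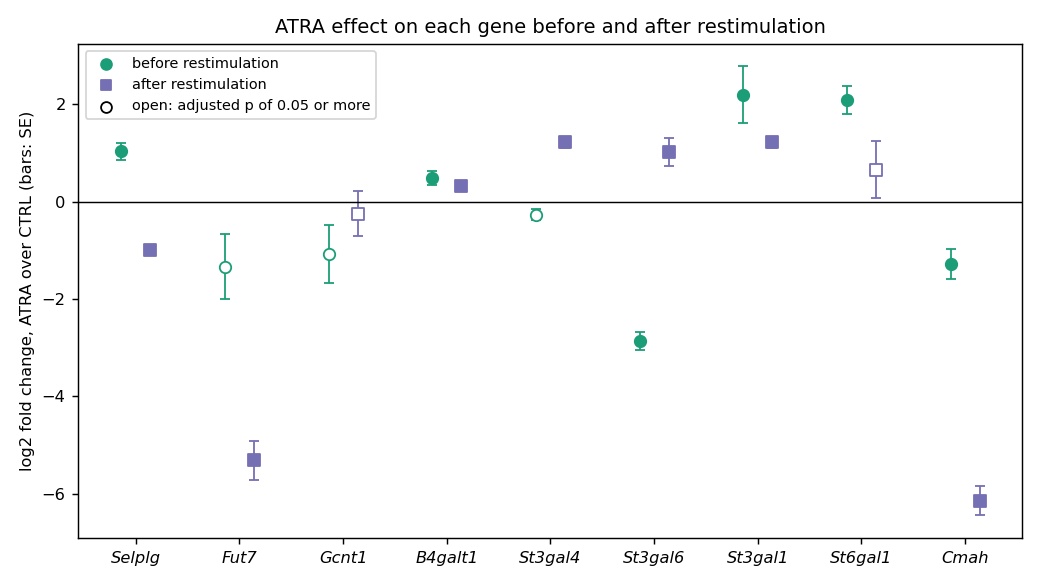
Log2 fold change of ATRA against CTRL for each member, before restimulation and after it, as points with bars of 1 SE; filled points passed and open points did not. Selplg goes from 1.03 to -0.999 and St3gal6 from -2.86 to 1.02, while Cmah is negative in both states (-1.29 and -6.15).

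St3gal1 encodes the sialyltransferase that caps unbranched core 1 O-glycans, a substrate it shares with Gcnt1, and in mice it is known for its role in the survival of peripheral CD8+ T cells. Before restimulation the CTRL libraries held 12.1, 10.2 and 12.9 CPM and the ATRA libraries 20.0, 36.5 and 105 CPM. The ATRA libraries were all above the CTRL libraries and spread widely among themselves, replicate 3 being the highest. The log2 fold change was 2.19 (SE 0.58), and St3gal1 passed. Without ATRA replicate 3 the value fell to 1.26 and passed. St3gal1 did not pass without any single CTRL library (2.08 to 2.26), and without both libraries that stood apart it was 1.29 (SE 0.43) and did not pass. After restimulation the libraries of each group were close, at 38.3, 41.3 and 30.7 CPM in CTRL and 82.9, 84.3 and 89.0 CPM in ATRA cells. The groups lay well apart (1.22, SE 0.11, passed). The difference between the states of -0.99 (SE 0.63) did not pass, and was -1.39 and passed without ATRA replicate 1 and -0.04 without ATRA replicate 3.

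St6gal1 encodes the enzyme that adds sialic acid to N-glycan ends in the linkage that the B cell Siglec CD22 binds. Before restimulation it was 2.27, 4.6 and 4.56 CPM in CTRL and 17.9, 16.6 and 14 CPM in ATRA cells. The ATRA libraries were close to each other and all far above the CTRL libraries, and the log2 fold change was 2.08 (SE 0.30) and passed. After restimulation it was near the floor in both groups, with counts of 7, 4 and 22 in CTRL and 17, 22 and 16 in ATRA libraries. The ranges overlap through CTRL replicate 3, the value of 0.65 (SE 0.59) did not pass, and without that library it was 1.57 (SE 0.62) and passed. The difference between states was -1.44 (SE 0.62) and did not pass, although it passed with DESeq2 (-1.43) and without ATRA replicate 3 before (-1.53) or CTRL replicate 2 after restimulation (-1.79). Without CTRL replicate 3 after restimulation it was -0.51 and did not pass. St6gal1 is abundant in B cells, and 2 B cell markers were read beside it. Cd79b stood at 1.03 ± 0.324 CPM in CTRL and 3.85 ± 0.890 CPM in ATRA cells before restimulation (SD, n = 3), and at 1.35 ± 0.923 and 3.01 ± 0.592 CPM after it. Ms4a1 was at most 0.195 CPM in CTRL and 0.475 CPM in ATRA libraries before restimulation, and after it was 0 in all CTRL libraries and 2.18 to 3.21 CPM in the ATRA libraries. The part of these markers in the St6gal1 values was not tested.

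Cmah encodes the hydroxylase that turns CMP-Neu5Ac, the common activated sialic acid, into CMP-Neu5Gc, the form that mouse lymphocytes carry in plenty and that human cells cannot make. Before restimulation the CTRL libraries held 18, 12 and 13.1 CPM and the ATRA libraries 7.88, 6.1 and 3.63 CPM. All ATRA libraries were lower, and the log2 fold change was -1.29 (SE 0.31) and passed. It no longer passed without any single CTRL library or without ATRA replicate 2 (-1.41 to -1.09), and without both libraries that stood apart it was -0.84 (SE 0.15) and passed. In that last fit 65.1% of all tested genes passed, beside 33.6% with all libraries kept. After restimulation the CTRL counts were 850, 830 and 697 and the ATRA counts 8, 6 and 22, or 47.7, 50.7 and 37.5 CPM against 0.448, 0.314 and 1.1 CPM. The log2 fold change was -6.15 (SE 0.30), the widest of any member in either state. It ranged from -6.87 (without ATRA replicate 3) to -5.83 (without ATRA replicate 2) when 1 library was left out. It passed, as did the difference between the states of -4.87 (SE 0.50).

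Within each batch, which the labels give the same name in the CTRL and ATRA libraries of 1 replicate number, all 9 members kept 1 sign in the 3 batches before restimulation and 7 of 9 did after it. The exceptions were Gcnt1 and St6gal1, which had not passed there. The groups did not overlap for the members that kept 1 sign, so any pairing of their libraries would give it. This count therefore repeats the lack of overlap and is no separate check. The difference of log2 CPM within a batch ranged from -1.83 to -0.97 for Cmah and from -3.75 to -0.48 for Fut7 before restimulation. After it the ranges were -6.91 to -4.95 for Cmah and -6.27 to -4.20 for Fut7. In both states 5 members passed, beside 22.5% of the 11369 genes tested in both: St3gal1 and B4galt1 higher in both, Cmah lower in both, and Selplg and St3gal6 with opposite signs. In the test of the difference 5 members passed (Cmah, Fut7, Selplg, St3gal4 and St3gal6), beside 49.2% of 12364 genes.

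Set in order over the 4 groups on the common scaling, Cmah was highest in restimulated CTRL cells at 45.4 ± 7.02 CPM (SD, n = 3 in each group), then 15.4 ± 3.38 in CTRL and 6.26 ± 2.21 in ATRA cells before restimulation, and 0.620 ± 0.420 in restimulated ATRA cells. No neighbours in that order overlapped. For Fut7 the CTRL groups before and after restimulation stood at 13.1 ± 2.08 and 11.5 ± 0.819 CPM with overlapping libraries, and the ATRA groups at 5.11 ± 3.80 and 0.285 ± 0.226 CPM. St6gal1 was highest in ATRA cells before restimulation (17.3 ± 1.92), followed by CTRL cells before it (4.09 ± 1.44), and the restimulated groups (0.966 ± 0.176 in ATRA and 0.608 ± 0.505 in CTRL) overlapped. Its restimulated level was therefore 0.0559 of the earlier level in ATRA cells and 0.149 of it in CTRL cells.

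For St3gal6 the order was CTRL before (32.6 ± 4.72), ATRA after (17.1 ± 2.17), CTRL after (8.46 ± 3.93) and ATRA before restimulation (4.45 ± 0.540), with no overlap between neighbours. St3gal4 was highest in restimulated ATRA cells (85.8 ± 4.14), and its lowest neighbours, ATRA before (46.3 ± 4.19) and CTRL after restimulation (37.1 ± 5.46), overlapped. St3gal1 was also highest in restimulated ATRA cells (85.1 ± 3.03), but ATRA cells before restimulation (58.0 ± 49.4) spread over both its neighbours in the order. Gcnt1 was highest in CTRL cells before restimulation (11.7 ± 2.19), and its other 3 groups, from 3.37 ± 0.753 to 5.48 ± 3.68, overlapped as neighbours. B4galt1 had the narrowest range, from 78.8 ± 8.10 in CTRL cells before to 149 ± 0.516 in ATRA cells after restimulation.

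Levels of different genes can be compared only per transcript length, which the deposited TPM table (transcript abundance per length and library) allows for the restimulated cells. By TPM Selplg was the most abundant member, at 301 ± 20.2 in CTRL and 144 ± 5.49 in ATRA cells (SD, n = 3). The lactosamine and capping enzymes St3gal4 (55.9 ± 16.9 and 115 ± 11.3) and B4galt1 (52.4 ± 10.3 and 69.0 ± 0.837) came next. In CTRL cells Cmah followed at 27.2 ± 5.47, above St3gal1 at 15.3 ± 1.60, and Fut7 at 9.18 ± 0.655 lay within the range of St3gal6 at 8.71 ± 3.68. In ATRA cells St3gal1 (37.3 ± 1.86) and St3gal6 (16.5 ± 1.41) came before Gcnt1 (2.24 ± 0.547), Cmah (0.689 ± 0.470), St6gal1 (0.485 ± 0.101) and Fut7 (0.202 ± 0.160). Cmah thus moved from the fourth place to the seventh, and Fut7 from the sixth to the last. The ratio of the group means for Cmah was 39.5-fold by TPM and 72.8-fold by CPM, and for Fut7 45.5-fold and 40.2-fold, while the direction was the same by both measures for all 9 members.

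**Figure D3:**
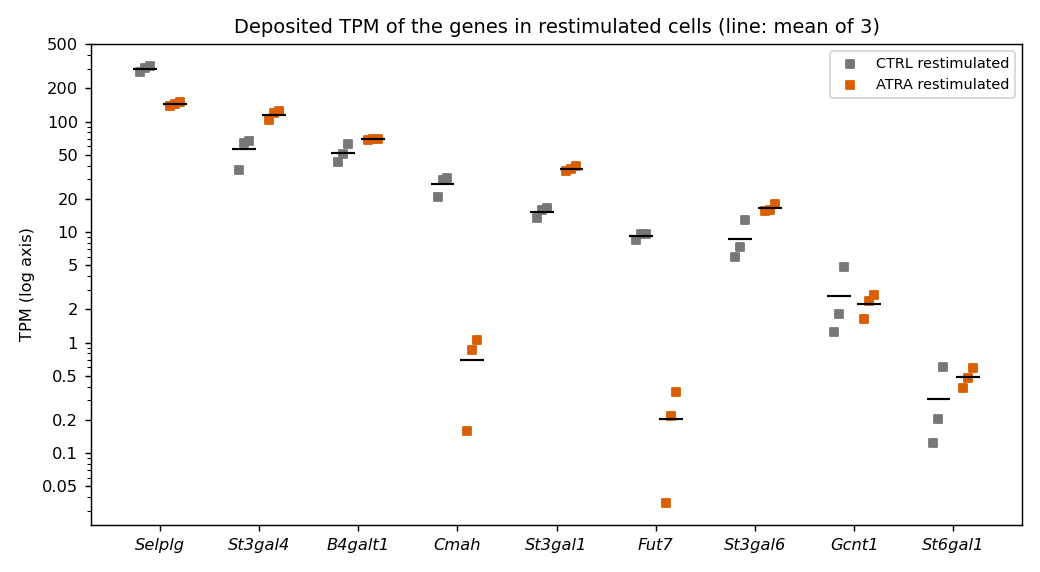
TPM of the 9 members in the restimulated libraries on a log axis, CTRL beside ATRA, with points for libraries and bars for group means. Selplg is the highest member in both groups, and Cmah and Fut7 reach at most 1.06 and 0.355 TPM in the ATRA libraries.

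Other genes of the same pathways were read from 9 lists drawn up by function, of which 84 symbols were in the table before and 109 in the table after restimulation. Before restimulation 39 of 76 tested list genes passed, 18 higher and 21 lower (51.3%, beside 33.6% of all tested genes, median log2 fold change -0.0031). After it 43 of 74 passed, 26 higher and 17 lower (58.1%, beside 62.6% of all tested genes, median 0.07). The shares of all genes, 33.6% before and 62.6% after restimulation, apply to each list that follows. In the supply of sialic acid, 1 of 5 genes rose and 2 fell before restimulation, and 2 rose and 1 fell after it (60% in each state). Slc35a1, the Golgi transporter of CMP-sialic acid, fell from 19.7 ± 1.24 to 9.09 ± 0.202 CPM (edgeR adjusted p = 0.0019), and Nans, which condenses the sialic acid ring, fell by 0.56 on the log2 scale. Gne, the enzyme that opens the pathway, rose by 0.65. After restimulation Slc35a1 rose instead, from 19.4 ± 2.44 to 35.3 ± 2.30 CPM (edgeR adjusted p = 5.5e-05), as did Cmas, which makes CMP-sialic acid (log2 fold change 0.89), while Nanp, the phosphatase before it, fell by 1.01. The sialidases Neu1 and Neu3 did not pass in either state, with log2 fold changes of 0.01 and 0.06 before and -0.03 and -0.02 after restimulation (SE 0.12 to 0.19). Of these 4 edgeR tests 0 had an unadjusted p under 0.05, and with DESeq2 0 passed.

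Among the other sialyltransferases 4 of 10 rose and 2 fell before restimulation (60% passed), and 2 of 9 rose and 4 fell after it (66.7%). St3gal5, which makes the ganglioside GM3, fell from 5.01 ± 1.61 to 1.71 ± 0.290 CPM before restimulation and rose from 3.04 ± 0.359 to 32.9 ± 1.17 CPM after it (edgeR adjusted p = 0.012 and 1.8e-09). St8sia1, which makes disialylated gangliosides, rose by 1.29 and St6galnac2, a sialyltransferase of O-glycans, by 2.12 before restimulation. After it St8sia4, a polysialyltransferase, fell from 66.9 ± 9.13 to 11.8 ± 1.55 CPM (edgeR adjusted p = 1.8e-08) and St6galnac6 fell by 1.90. Of the genes for fucose supply and other fucosyltransferases 4 of 12 (33.3%) passed before restimulation and 4 of 10 (40%) after it. Fut8, which fucosylates the core of N-glycans, rose from 3.74 ± 0.388 to 17.1 ± 3.69 CPM before restimulation, and Fut11 and Pofut2, which fucosylate proteins, fell by 0.96 and 0.81. After restimulation Pofut2 rose by 1.23 and Fpgt, of the fucose salvage route, by 0.50, while Gmds, the first enzyme of GDP-fucose synthesis, fell by 0.82.

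For O-glycan initiation and cores 9 of 14 tested genes (64.3%, beside 33.6% of all genes) passed before restimulation, 3 higher and 6 lower, and 11 of 14 (78.6%, beside 62.6%) after it, 6 higher and 5 lower. Gcnt4, a paralogue of Gcnt1, fell from 60.01 ± 29.0 to 3.52 ± 0.524 CPM before restimulation (edgeR adjusted p = 0.0018), and Galnt3, which starts O-glycans, fell by 3.16. Gcnt2, which branches lactosamine chains, rose by 2.59 before and by 3.00 after restimulation. Galnt12 fell by 1.78 and Galnt10 rose by 1.53 after it, both of them enzymes that start O-glycans. In lactosamine extension and N-glycan branching 6 of 17 (35.3%) passed before restimulation, 4 higher and 2 lower, and 8 of 18 (44.4%) after it, 5 higher and 3 lower. B3gnt3, an extension enzyme of selectin ligands, rose by 1.65 and Mgat4b, a branching enzyme, by 1.32 before restimulation, and B3gnt5, of the lactosylceramide series, fell by 1.38 before and by 1.65 after it. Mgat5, the branching enzyme that restrains T cell receptor clustering, rose from 34.8 ± 8.30 to 106 ± 3.92 CPM after restimulation (edgeR adjusted p = 8.8e-06), and Man2a2, a mannosidase that trims N-glycans, fell by 1.89.

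For sulfation 2 of 7 genes (28.6%, beside 33.6% of all genes) passed before restimulation and 3 of 7 (42.9%, beside 62.6%) after it. Chst2, a sulfotransferase of selectin ligands, fell from 15.8 ± 1.01 to 0.684 ± 0.528 CPM before restimulation (edgeR adjusted p = 0.0017). Its log2 fold change of -4.51 was -5.35 without ATRA replicate 1 and -4.16 without ATRA replicate 3. Papss1, which makes the sulfate donor, rose by 0.85 before restimulation and fell by 0.74 after it. After it Slc35b3, the Golgi transporter of that donor, rose by 0.80 and Tpst2, which sulfates tyrosines, by 0.56. All 7 tested selectins and other carriers passed before restimulation (3 higher, 4 lower), beside 33.6% of all genes, and 7 of 8 after it (6 higher, 1 lower), beside 62.6%. Cd44, a carrier that binds hyaluronan and can bear selectin ligands, fell from 323 ± 29.5 to 193 ± 35.2 CPM before restimulation and rose from 184 ± 9.90 to 499 ± 20.3 CPM after it (edgeR adjusted p = 0.014 and 3.5e-09), the opposite turn to Selplg. Lamp1, a lysosomal carrier of sialylated chains, rose by 0.68 and 0.52. Siglecf, whose product binds sialylated glycans, fell by 3.20 before and by 1.63 after restimulation, with mean levels of at most 10.1 CPM. Single libraries decided several calls before restimulation: the Galnt3 call ended on leaving out ATRA replicate 2 or any CTRL library (adjusted p = 0.081 to 0.093), Gcnt2 without CTRL replicate 2 or 3 or ATRA replicate 2 or 3 (0.072 to 0.11), B3gnt5 without any library but ATRA replicate 3 (0.051 to 0.12), Nans without CTRL replicate 2 or 3 or ATRA replicate 2 (0.057 to 0.07), Gne without CTRL replicate 2 or 3 (0.061 and 0.068) and Cd44 without CTRL replicate 3 (0.052), all by edgeR's quasi-likelihood test with Benjamini-Hochberg adjustment.

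**Figure D4:**
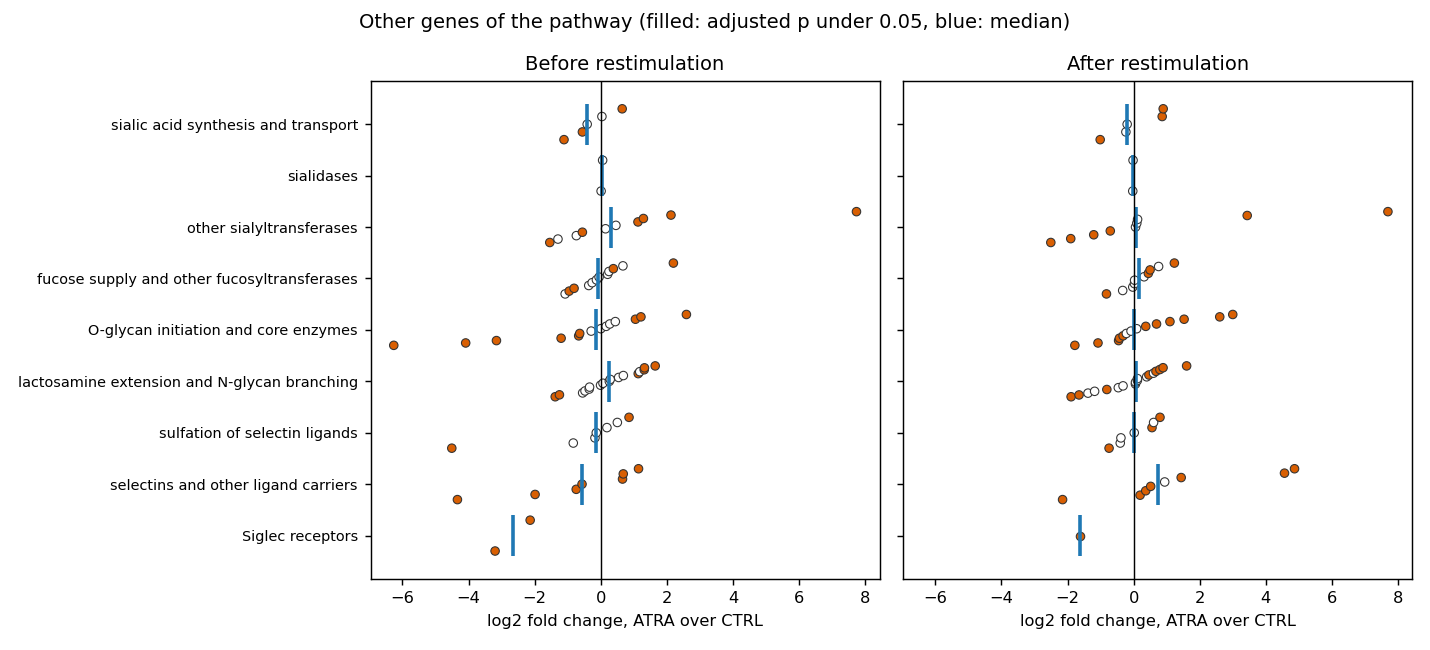
Log2 fold change of ATRA against CTRL for each tested gene of the 9 pathway lists, before restimulation and after it; points are genes, filled where they passed, and the blue line in each row is the list's median. Carriers and selectins have a median of -0.57 before and 0.73 after restimulation, and the sialidases lie near 0 in both. The rightmost points, St6galnac5 before and St8sia6 after restimulation, had 0 counts in all CTRL libraries of that state, so their plotted values depend on the model and bound nothing.

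For the 3 members with the widest range, the genes whose centred log2 CPM over the 12 libraries lay nearest were looked up among 9944 genes, by root mean square difference. Nearest to Cmah were Sema4a, a semaphorin (0.84), Trp73 (0.87), S100a4 (0.93) and Alpk2 (0.93). Nearest to Fut7 were Sema4a again (0.61), Alpk2 (0.82), Jaml, a junctional adhesion molecule (0.86), and Cfap91 (0.95). Sema4a had group means of 109 and 116 CPM in CTRL cells before and after restimulation, and of 52.9 and 1.67 CPM in ATRA cells. Nearest to St6gal1 were Ciart (0.65), Plcxd1 (0.67), Aldoc, an aldolase (0.68), and Bnip3, a mitochondrial protein (0.68). Bnip3 had 192 and 45.9 CPM in CTRL and 554 and 52.3 CPM in ATRA cells before and after restimulation. These distances describe the 12 libraries, which share batch sets and scaling, and carry no test.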

How the data were processed

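RNA of sorted cells was sequenced in 12 libraries made with a stranded total RNA kit, per the labels' protocols, and grouped by sample title. The authors deposited whole-number counts per gene symbol, in 1 table per state, and TPM for the restimulated libraries, whose column headings give the treatment only. The count tables differ in gene naming and filter. That before restimulation held 13948 symbols, each with at least 10 counts in total, and the later one 35588 rows, 16386 of them at 0. A symbol absent from the earlier table is therefore not a measured 0. Comparisons across states used the 13625 symbols in both. The submitters' processing notes name DESeq2 1.42.1, Salmon 1.10.3, STAR 2.7.11b, cutadapt 5.0 and build mm39, and the sources used here do not give their roles, the strand setting or the annotation. Rows with a repeated symbol (32) kept the row with the largest total.

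Tests on these counts used edgeR 4.0.16 (R 4.3.3, TMM, filterByExpr by group, robust quasi-likelihood fits, Benjamini-Hochberg adjustment over all genes, threshold 0.05), within each state and as an interaction on 12 libraries. DESeq2 1.42.0 was an alternative. SE was computed from the coefficient and its F. The scripts were tested on simulated data. Whether libraries came from separate mice or cultures is not stated, so the spread behind each p-value may be technical. The floor of 3 counts covers counting error only, while the SE also reflects the spread between the libraries of a group. Because the labels state a shared batch, replicate numbers pair CTRL and ATRA libraries. The main fits, which gave every call and SE unless stated otherwise, held no term for batch. Fits with that term (the replicate block) were run as an alternative. Deviations from group means of same-numbered libraries correlated at 0.13, -0.06 and 0.07 before and -0.04, -0.10 and 0.04 after restimulation. All members are named. Of each list up to 3 passing genes per state, and 2 for the difference, with a mean of at least 5 CPM are named by the largest change; 1 such gene is not reported here. The members, lists and rule were chosen with earlier results of these data known. Promoter letters come from RefSeq, build GRCm38.p6.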

Additional observations from a re-analysis of the deposited data

Results flagged for a closer look

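The ATRA effect differed between the states (after minus before restimulation, edgeR's interaction on 12 libraries) for 5 members, where 49.2% of all 12364 tested genes passed. It also differed for 41 of 78 tested list genes (52.6%), of which the 15 picked by the naming rule are given. This contrast was among the results known when the members were chosen, so for them it is a description. Among the members the log2 difference was -4.87 for Cmah, -3.98 for Fut7 and -2.03 for Selplg, and 1.49 for St3gal4 and 3.88 for St3gal6. Selplg and St3gal6 changed sign with the groups apart in both states, whereas Cmah was lower in ATRA cells in both states and more so after restimulation. Without CTRL replicate 1 and ATRA replicate 3 before restimulation these values were -5.30, -4.40, -1.98, 1.44 and 3.94 in the same order. When 1 library was left out, Cmah ranged from -5.59 (without ATRA replicate 3 after restimulation) to -4.55 (without ATRA replicate 2 after it). Fut7 ranged from -4.62 (without ATRA replicate 1 after restimulation) to -3.47 (without ATRA replicate 1 before it).

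In sialic acid supply the difference was 1.97 for Slc35a1 and 0.86 for Cmas. Among other sialyltransferases it was 4.97 for St3gal5 and -3.64 for St8sia4. Pofut2 and Fut8, which act in fucosylation, had 2.04 and -1.44. Gcnt4 and Galnt3, of the O-glycan list, had 4.01 and 3.25, and Man2a2 and B3gnt3, of the lactosamine and N-glycan list, had -3.21 and -1.97. In sulfation Chst2 had 4.10 and Papss1 -1.60. The carriers Cd44 and Spn (CD43) had 2.18 and 0.93, and Siglecf had 1.57. Chst2 was 4.94 without ATRA replicate 1 and 3.76 without ATRA replicate 3 before restimulation, and Fut8 was -0.73 without CTRL replicate 3 after it. Adjusted p ranged from 2.9e-07 for St3gal5 to 0.031 for Fut8.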

How the results depend on the processing

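Members passing before restimulation (6) numbered 5 with the replicate block and 3 to 8 when 1 library was left out (3 without CTRL replicate 2 or 3, 8 without ATRA replicate 3). After it (7) they numbered 7 with the block and 6 to 8, and in the difference (5) 5 with the block and 5 to 6. Of all tested genes 33.6% passed before restimulation and 23.9% with the block. The share was 14.3% without CTRL replicate 2, 13% without CTRL replicate 3 and 45.4% without ATRA replicate 3. After restimulation it was 62.6%, with 60.6% under the block and 55.5% to 62.7% when 1 library was left out. In the difference it was 49.2%, with 43.7% and 42.5% to 56.2%. List genes numbered 39, with 37 under the block and 23 to 43 when 1 library was left out, then 43, with 43 and 38 to 45, and 41, with 37 and 34 to 47. Over all genes before restimulation 4071 passed, against 1613 without CTRL replicate 3, 1772 without CTRL replicate 2 and 2226 without ATRA replicate 2. Without both libraries that stood apart 7980 (65.1%) passed, among them 8 members and 58 list genes. The cause was not tested. With the block B4galt1 before restimulation (0.48) and Fut8 in the difference (adjusted p = 0.061 by edgeR) no longer passed, and no other named gene changed its call. Gcnt1 after restimulation (-0.25) ranged from -0.58 to 0.53 when 1 library was left out, its sign turning without CTRL replicate 3. St3gal4 before restimulation was -0.22 and passed without both libraries that stood apart, and Fut8 in the difference also no longer passed in 7 of the fits that left out 1 library (0.055 to 0.07). With total counts only, Gcnt2 and B3gnt5 before restimulation no longer passed (adjusted p = 0.051 and 0.058). Without both libraries that stood apart Galnt3 was -2.45 and Gcnt2 1.69 before restimulation. Scaling by RLE or by total counts, DESeq2 and no low-count filter left 6, 7 and 5 members passing, except that DESeq2 gave 6 in the difference. Low counts limit Fut7, Cmah and St6gal1 after restimulation.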

Other observations

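St6galnac5 and St8sia6, outside the naming rule and singled out after their values were seen, were at 0 in every control library of 1 state. St6galnac5, a sialyltransferase of gangliosides, had 0.950 to 1.09 CPM in the 3 ATRA libraries before restimulation and 0 in the CTRL libraries there and in all 6 libraries after it. St8sia6, also a sialyltransferase, had 0.954 to 2.04 CPM in the restimulated ATRA libraries and 0 in the CTRL libraries beside them, while before restimulation the CTRL libraries held 0.187 to 0.859 CPM and the ATRA libraries 0 to 0.561 CPM, which overlap.

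ATRA replicate 3 before restimulation was the ATRA library nearest to the restimulated ATRA levels in several members: St3gal1 stood at 105 CPM in it beside 82.9 to 89.0 CPM after restimulation, Fut7 at 0.777 beside 0.0523 to 0.504 CPM, and Cmah at 3.63 beside 0.314 to 1.1 CPM. Selplg went the other way, with 852 CPM in that library and 175 to 181 CPM after restimulation, and it was the ATRA library farthest from the restimulated levels for St3gal4 (38.3 beside 81.1 to 89.1 CPM) and St3gal6 (3.80 beside 15.7 to 19.7 CPM). These CPM are scaled within each state. On the common scaling St3gal1 stood at 114 CPM in that library, beside 82.7 to 88.5 CPM in restimulated ATRA cells. CTRL replicate 3 after restimulation held the highest CTRL values of Selplg, Gcnt1, B4galt1, St3gal4, St3gal6 and St6gal1 and the lowest of Cmah, St3gal1 and, by a small margin, Fut7.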
